A study of Mus musculus with 8 samples.

Results

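Box H/ACA small nucleolar RNAs and the small Cajal body RNAs were followed in whole mouse kidneys, as the rows of the deposited table whose symbols begin with Snora or Scarna and a digit. This rule found 41 of 23219 genes, of which 33 were Snora genes and 8 were Scarna genes. The mutant group held 4 kidneys of the genotype Six2Cre Mta2flx/flx, and the control group held 4 kidneys of the genotype Mta2flx/flx without Cre. All mice were 2 months old, and both groups carried the floxed alleles of Mta2, a subunit of the NuRD chromatin remodelling complex. Six2Cre is active in nephron progenitors, so a whole mutant kidney also holds cells outside that lineage in which Mta2 is not deleted by it. Each library goes by its group and the number in its title. The labels count kidneys and do not say outright that each came from another mouse, so a p-value here reflects the spread between these 8 samples, which may be partly technical.

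Box H/ACA RNAs are short guides with paired hairpins that pick out single uridines for conversion to pseudouridine. Each works in a particle with the synthase Dkc1 and the proteins Nop10, Nhp2 and Gar1. Small nucleolar H/ACA RNAs act mainly on ribosomal RNA, whereas small Cajal body RNAs act on the spliceosomal small nuclear RNAs and can carry box H/ACA hairpins, the box C and D motifs of ribose methylation guides, or both. In mammals most of them are cut from introns of host genes, many of which encode ribosomal proteins or translation factors.

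Levels are given in BPM, the bases of sequence assigned to a gene per megabase assigned to all genes, which is the deposited value divided by 280. No source states the unit, and the reading as bases rests on the steps of the values. The libraries held 164.3, 236.4, 294.6 and 468.4 megabases in mutants 3382, 3387, 3487 and 3489, against 244.2, 181.3, 439.0 and 211.7 megabases in controls 3401, 3486, 3586 and 3587. Values below are listed in this library order. All 8 kidney markers were detected in every library and summed to 2891 to 8413 BPM in mutants and 3764 to 11940 BPM in controls. Mta2 had 52.6, 33.1, 14.3 and 48.9 BPM in mutants, against 49.0, 35.1, 67.9 and 52.4 BPM in controls. The 2 groups overlapped for Mta2 (log2 fold change -0.56, SE 0.40, limma adjusted p = 0.857), so in whole kidney the level of the targeted gene did not separate the genotypes. The labels do not say which exons the floxed alleles remove, so a value over the whole gene checks the deletion only in part. Macrophage markers summed to 160.8 to 1367 BPM in mutants and 86.6 to 168 BPM in controls. The largest part in every library was Lyz2, with 1057, 165, 110 and 529 BPM in mutants, against 43.4, 83.5, 65.6 and 92.0 BPM in controls. Lyz2 and C1qb had every mutant above every control, as 0.888% of tested genes did, while Csf1r, C1qa and Cd68 overlapped. The erythrocyte markers found, Hba-a1 and Hba-a2, summed to 176 to 365 BPM in mutants and 825 to 1322 BPM in controls. Both were called lower in mutants, beside 0.0306% of tested genes (log2 fold change -2.07 and -1.86, limma adjusted p = 0.00765 and 0.0164). Lymphocyte markers were at most 10.8 BPM in sum in mutants and 9.05 BPM in controls, and the adrenal markers at most 1.74 BPM in any library. Fat markers summed to 0.130 to 14.2 BPM in mutants, highest in 3487, and to 0.0082 to 9.65 BPM in controls. In bulk tissue, fewer cells of a type and less RNA per cell cannot be told apart.

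All 41 RNAs matched a gene of GENCODE vM21 on the GRCm38 assembly. The Snora genes were 127 to 196 bases long, and 29 of the 33 were no longer than 140 bases. The sequences below belong to the RNAs on which the results turn: those with the largest differences in either direction, 3 neighbours cut from one host (Snora16a, Snora44 and Snora61), the most abundant guides, and 1 Cajal body RNA of the box C/D kind. They are GENCODE vM21 transcripts, 5′ to 3′. Capitals mark the ACA box near the 3′ end, except in Scarna9, where they mark the box C and box D matches, TGATGA and CTGA. Snora44 has no capitals, because its listed transcript has no ACA in its last 10 bases.
Scarna3a (chr1:159340283-159340422, plus strand): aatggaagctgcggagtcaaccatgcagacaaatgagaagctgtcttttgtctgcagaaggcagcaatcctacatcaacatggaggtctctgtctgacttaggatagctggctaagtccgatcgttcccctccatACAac
Snora61 (chr4:132310240-132310369, plus strand): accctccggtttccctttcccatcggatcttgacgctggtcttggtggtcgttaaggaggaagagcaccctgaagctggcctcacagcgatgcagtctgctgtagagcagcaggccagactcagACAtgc
Snora44 (chr4:132309941-132310069, plus strand): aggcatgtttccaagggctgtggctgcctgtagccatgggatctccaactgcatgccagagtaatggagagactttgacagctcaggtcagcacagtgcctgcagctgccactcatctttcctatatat
Snora16a (chr4:132309464-132309600, plus strand): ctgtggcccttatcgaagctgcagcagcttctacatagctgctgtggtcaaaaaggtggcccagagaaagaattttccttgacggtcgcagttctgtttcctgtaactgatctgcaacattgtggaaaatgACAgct
Snora7a (chr6:115807975-115808114, minus strand): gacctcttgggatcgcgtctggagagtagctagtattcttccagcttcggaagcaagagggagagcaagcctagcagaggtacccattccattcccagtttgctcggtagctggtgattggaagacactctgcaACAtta
Snora31 (chr14:75847905-75848034, plus strand): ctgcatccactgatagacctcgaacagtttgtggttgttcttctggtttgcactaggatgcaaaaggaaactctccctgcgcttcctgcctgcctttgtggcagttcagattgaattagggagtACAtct
Snora28 (chr12:111540941-111541067, plus strand): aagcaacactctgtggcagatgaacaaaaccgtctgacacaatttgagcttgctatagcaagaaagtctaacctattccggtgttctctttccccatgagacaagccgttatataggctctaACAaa
Snora78 (chr17:24719676-24719803, minus strand): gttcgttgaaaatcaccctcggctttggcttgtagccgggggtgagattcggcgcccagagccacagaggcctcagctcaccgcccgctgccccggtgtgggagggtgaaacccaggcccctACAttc
Scarna9 (chr9:15326264-15326333, minus strand): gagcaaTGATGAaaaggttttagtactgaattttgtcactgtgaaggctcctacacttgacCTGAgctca
The plain letters ACA, read on the transcript strand, stood exactly 3 bases before the 3′ end in 28 of 33 Snora sequences (84.8%) and somewhere in the last 10 bases in 31 (93.9%). Among all 1558 small nucleolar and Cajal body RNA transcripts of GENCODE, 48.1% had ACA in the last 10 bases, and among 98 Snord transcripts, which are box C/D guides, 8.16% did. Of the 8 Scarna sequences, Scarna3a, Scarna8 and Scarna13 had ACA in the last 10 bases. The other 5 (Scarna2, Scarna6, Scarna9, Scarna10 and Scarna17) had CTGA in the last 12 bases, which 87.8% of Snord transcripts had and 2 Snora sequences had. The Cajal body set therefore holds both end motifs.

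Summed over the 41 RNAs, the share of all assigned bases was 5.31%, 10.5%, 13.6% and 5.71% in mutants, against 6.56%, 7.56%, 3.30% and 6.41% in controls. Means were 8.77% ± 3.97 in mutants and 5.96% ± 1.84 in controls (SD, n = 4 each). Mutants 3387 and 3487 were highest, while mutants 3382 and 3489 lay inside the range of controls. All small RNA genes together followed the same order at the top, with 26.7%, 48.4%, 53.2% and 26.1% of bases in mutants, against 29.8%, 34.8%, 16.0% and 24.6% in controls. As a share of small RNA bases the groups lay close together, at 22.2% ± 2.35 in mutants and 22.6% ± 2.40 in controls. The part of the small RNA share in differences of single members was not tested beyond the alternatives given in the closing section.

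Ratios between classes gave a mixed picture. For each base of box C/D RNA (Snord genes) the libraries held 0.422, 0.303, 0.407 and 0.299 bases of Snora RNA in mutants, against 0.726, 0.665, 0.647 and 0.611 in controls. Every mutant lay below every control in this ratio, with means of 0.358 ± 0.0657 in mutants and 0.662 ± 0.0480 in controls. The separation rested in part on the abundant Snord17. With that gene left out, the ratio was 0.441, 0.342, 0.746 and 0.445 in mutants, against 0.824, 0.768, 0.748 and 0.642 in controls, and mutant 3487 lay among the controls. Against the RNase MRP and RNase P RNAs (Rmrp and Rpph1) the Snora ratio ran the other way and overlapped, at 0.530, 1.33, 1.28 and 1.19 in mutants, against 0.452, 0.470, 0.416 and 0.796 in controls. Within the guides, Scarna RNA per base of Snora RNA was 0.119, 0.162, 0.151 and 0.208 in mutants, against 0.0702, 0.0649, 0.0723 and 0.0946 in controls, again with no overlap. It stayed apart without Scarna3a (0.0764, 0.0659, 0.0855 and 0.0837 in mutants, against 0.0494, 0.0444, 0.0483 and 0.0484 in controls). Without both Scarna3a and Scarna6 it overlapped, at 0.0514, 0.0482, 0.0180 and 0.0366 in mutants and 0.0253, 0.0272, 0.0275 and 0.0330 in controls. The ratios are given as descriptions with no test, and those that leave out genes were chosen after the values were seen.

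**Figure D1:**
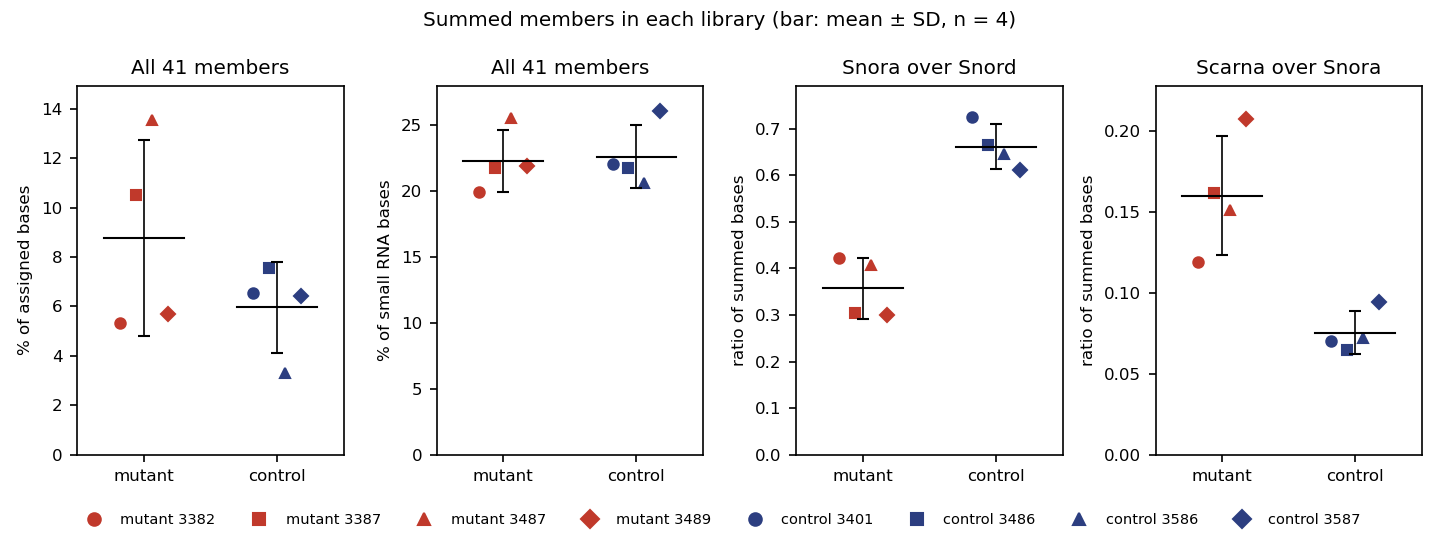
Summed guide RNAs in each library, as percent of assigned bases, percent of small RNA bases, Snora over Snord and Scarna over Snora, mutants left of controls, with 1 point per library and the group mean and SD. The share of assigned bases overlapped between groups, while the ratio of Snora to Snord RNA was 0.299 to 0.422 in mutants and 0.611 to 0.726 in controls.

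Of the 41 RNAs, 39 passed the level filter and were tested. Snora35, which lies in an intron of the serotonin receptor gene Htr2c, had no base in any library, and Snora19 had at most 0.295 BPM. With limma over 13060 genes, 0 of 39 were called higher and 0 lower in mutants at an adjusted p of 0.05. Over all genes 0.0766% were called higher and 0.0306% lower. At an unadjusted p under 0.05, 10 members (25.6%) had higher values in mutants, beside 1.91% of all genes, and 1 member (2.56%) had lower values, beside 4.42%. The authors' deposited table gave a p under 0.05 for 4 of the 41 members, 3 of them with a ratio above 1. It did so for 1046 of all 23219 genes.

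The median log2 fold change of the 39 was 0.18, with a range of -0.87 to 1.93, where the median of all tested genes was -0.23. It was 0.13 for the 31 Snora RNAs and 0.69 for the 8 Scarna RNAs, and 0.74 for 63 tested Snord genes. The sign was positive for 24 members (61.5%), beside 28.4% of all genes. These descriptions depended on the libraries and the scaling. Mutants 3387 and 3487 had the largest summed member shares of all libraries, so leaving them out is bound to lower the mutant values of the members. Without them the member median was -0.25 and that of all genes 0.23, and 16 members were positive, beside 68.5% of genes. In that fit 2 members were higher at an unadjusted p under 0.05, beside 7.35% of genes. When each library's small RNA share, which includes the members' own bases, entered as covariate, the medians were -0.23 for members and 0.22 for all genes. Then 15 members were positive, beside 66.3% of genes, and 3 were higher at an unadjusted p under 0.05, beside 16.3%. With small RNA genes out of the totals 30 were positive, beside 53.3%, and 13 higher at that p, beside 5.18%. Median scaling gave 30 positive, beside 51.0%, and 9 higher, beside 5.65%. Scaling to the small RNA total gave 15 positive, beside 9.92%, and 4 higher, beside 0.505%. With 1 library left out, the member median ran from 0.0015, without control 3586, to 0.47, without mutant 3489. Only Scarna17 had every mutant above every control, which is 2.56% of members beside 0.888% of genes. No member had every mutant below every control, beside 3.4% of genes.

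**Figure D2:**
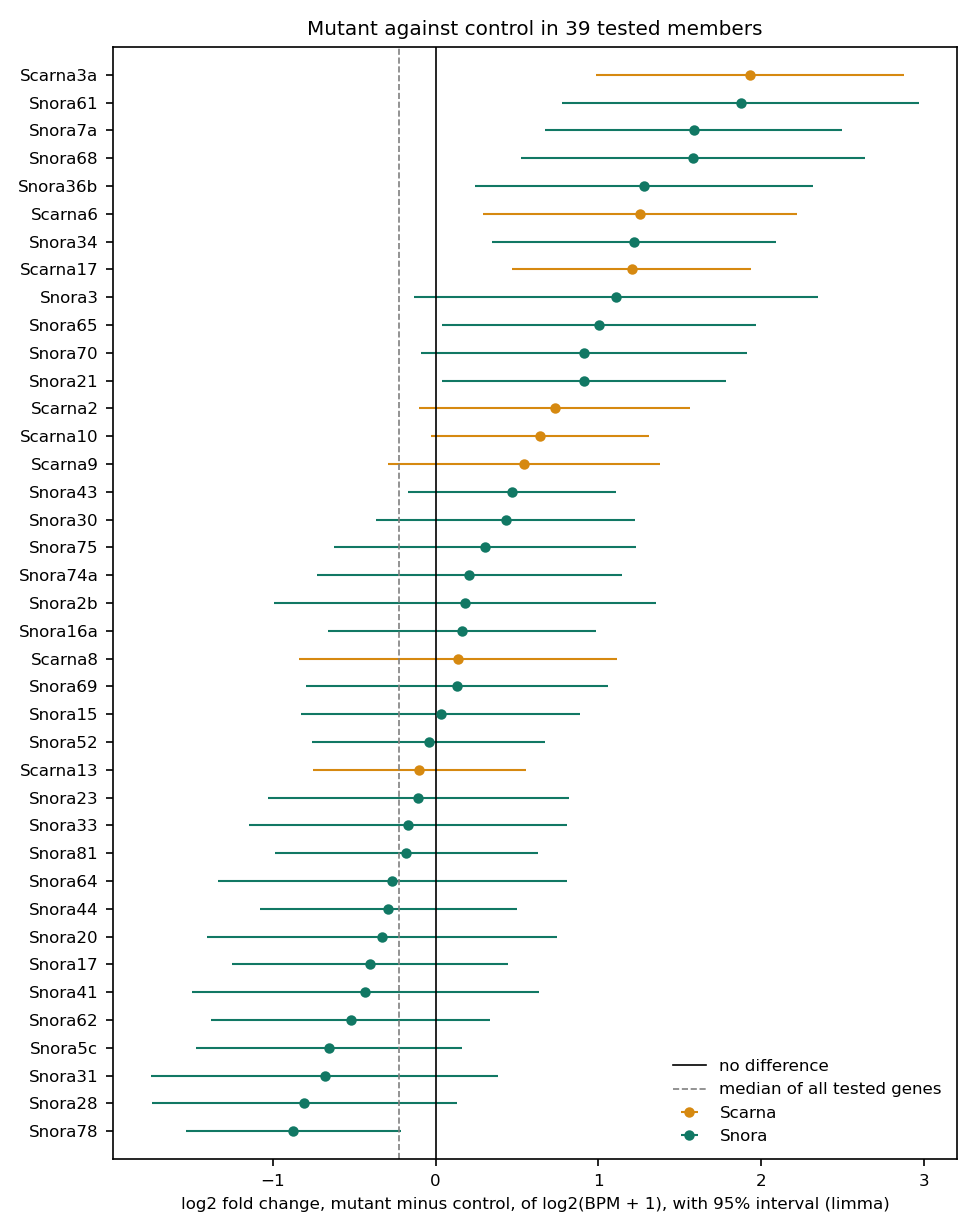
Log2 fold change of mutants over controls for the 39 tested RNAs, with 95% intervals from limma on log2(BPM + 1) and a dashed line at the median of all tested genes. Values ran from -0.87 (Snora78) to 1.93 (Scarna3a), and no RNA passed an adjusted p of 0.05.

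The members differed widely in level. Mean levels were at least 1000 BPM for 14 and at least 100 BPM for 29 of the 41. Per base of transcript, the scale on which genes can be compared, Snora7a was highest over all 8 libraries at 74.9 BPM per base, followed by Snora31 (69.1) and Snora44 (65.7). That order held for neither group alone. Snora7a averaged 114 BPM per base in mutants and 36.1 in controls, where Snora31, Snora44, Snora16a and Snora28 were above it at 83.7, 71.4, 42.4 and 36.2 BPM per base. Over all libraries Snora16a, Snora68 and Snora74a had 46.8, 44.2 and 36.4 BPM per base. The next were Snora28, Scarna3a, Snora70 and Snora21, with 28.4, 27.2, 22.2 and 21.0 BPM per base. Spread between libraries was large, so neighbours in this order were not separated. The 5 members highest in BPM made up 62.8%, 49.9%, 50.0% and 51.4% of all member bases in mutants, against 61.3%, 61.5%, 63.1% and 64.7% in controls.

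Snora7a, whose human counterpart guides a modification of the large subunit ribosomal RNA, had 6445, 18840, 24630 and 13760 BPM in mutants, against 4575, 5794, 2650 and 7208 BPM in controls. Only mutant 3382 reached into the control range, below control 3587. The log2 fold change was 1.59 (SE 0.44, limma adjusted p = 0.240). Snora68, also a large subunit guide in human, had 1932, 10840, 18280 and 5799 BPM in mutants, against 2309, 3337, 1620 and 2205 BPM in controls. Here too 3382 was the one mutant among the controls, and the log2 fold change was 1.58 (SE 0.51, limma adjusted p = 0.449).

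Snora31 and Snora44 did not share that pattern. Snora31 had 12490, 8164, 5459 and 2273 BPM in mutants, against 12260, 13880, 3593 and 13760 BPM in controls. Control 3586 stood far below the other controls, and mutant 3382 lay among those (log2 fold change -0.68, SE 0.51, limma adjusted p = 0.857). Snora44, a small subunit guide in human, had 6390, 8138, 11700 and 4764 BPM in mutants, against 9184, 9924, 6151 and 11580 BPM in controls, with overlapping groups and a log2 fold change of -0.29 (limma adjusted p = 0.908). Snora16a averaged 7005 ± 3384 BPM in mutants and 5816 ± 1417 BPM in controls (SD, n = 4 each; log2 fold change 0.16), and Snora74a 7954 ± 5634 BPM in mutants and 6305 ± 2850 BPM in controls (log2 fold change 0.21). Both differences were smaller than the spread within either group.

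Snora28, a small subunit guide in human, had 2608, 3326, 3602 and 958 BPM in mutants, against 5739, 7281, 2011 and 3341 BPM in controls. Its log2 fold change was -0.81 (SE 0.45, limma adjusted p = 0.828), and controls 3586 and 3587 lay within the mutant range. Snora70 had 1151, 5189, 7933 and 2527 BPM in mutants, against 2235, 2816, 1195 and 1272 BPM in controls. Snora21 had 1511, 4877, 6912 and 2427 BPM in mutants, against 2054, 2140, 1146 and 1962 BPM in controls. Both had a log2 fold change of 0.91, and in both mutant 3382 was lowest among mutants and inside or below the control range.

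**Figure D3:**
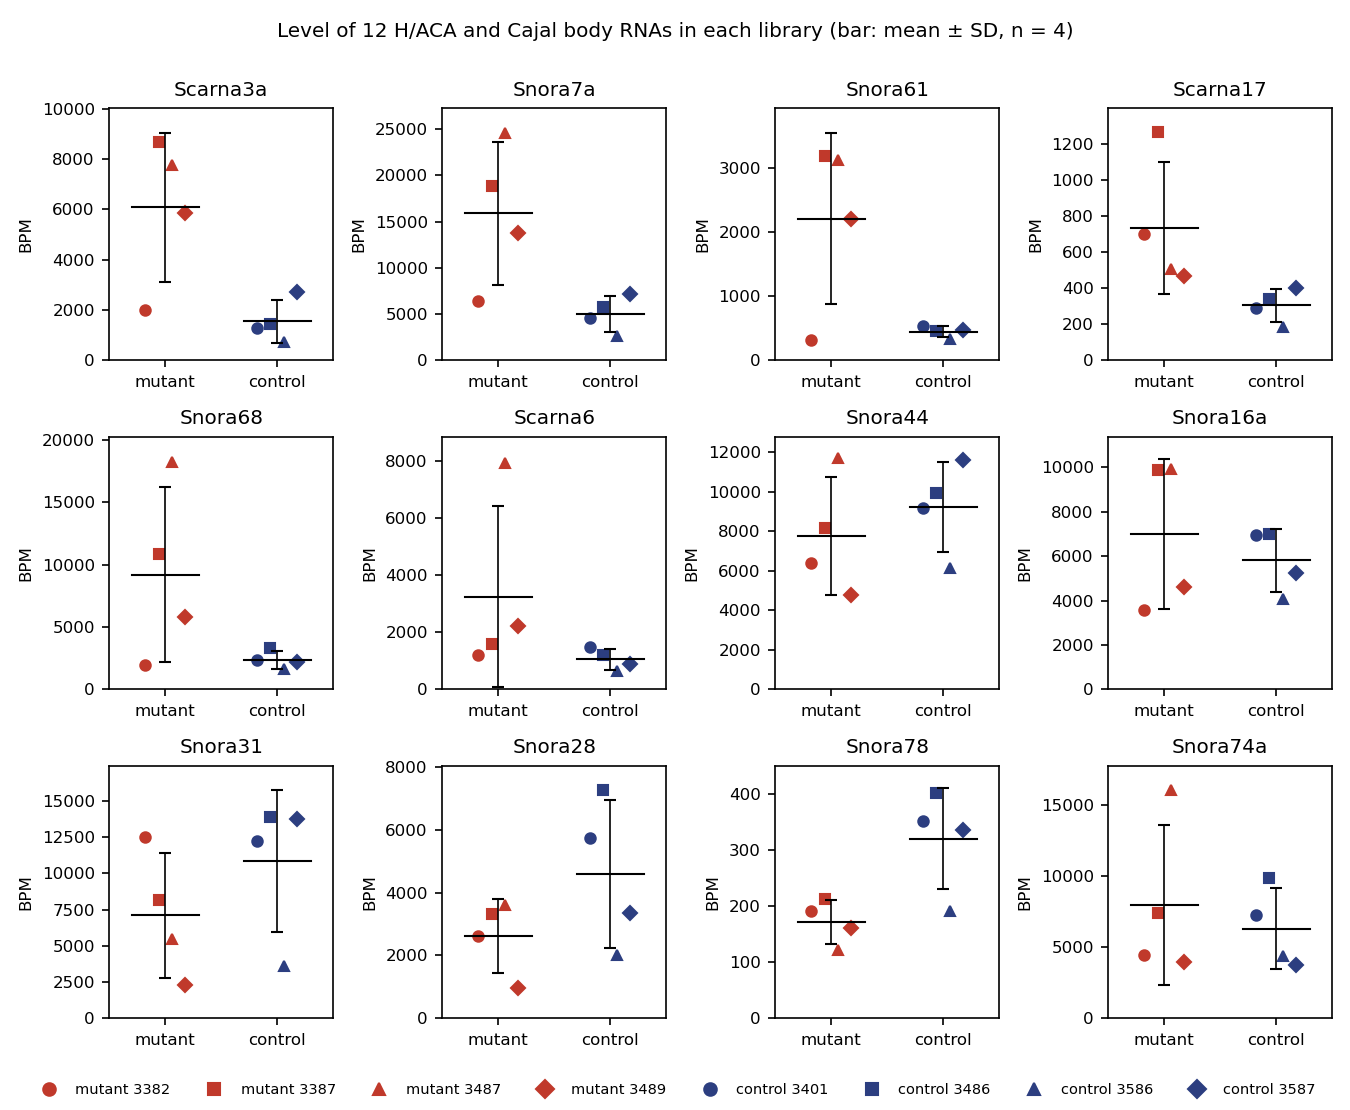
Level of single RNAs in BPM in every library, 1 panel per RNA with a linear axis from 0, mutants left of controls, with group mean and SD. In Snora7a, Snora68, Scarna3a and Snora61, mutants 3387, 3487 and 3489 lie above all controls and mutant 3382 lies in or below their range.

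Among the Cajal body RNAs, 7 of 8 had positive log2 fold changes. Scarna3a, which ends in an ACA box, had 2014, 8686, 7754 and 5866 BPM in mutants, against 1276, 1458, 739 and 2712 BPM in controls. Here again 3382 was the one mutant inside the control range. The log2 fold change of 1.93 (SE 0.45) was the most positive of all members and had the smallest adjusted p of them (limma, 0.113). Scarna17, with a box D end, had 699, 1265, 508 and 469 BPM in mutants, against 291, 338, 187 and 402 BPM in controls. Its groups did not overlap, and the log2 fold change was 1.20 (SE 0.35, limma adjusted p = 0.300).

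Scarna6 had 1188, 1602, 7949 and 2223 BPM in mutants, against 1478, 1217, 639 and 897 BPM in controls. A single library, mutant 3487, held most of the difference in means (log2 fold change 1.26, SE 0.46, limma adjusted p = 0.587). Scarna2, which guides ribose methylation of a spliceosomal RNA in human, averaged 827 ± 500 BPM in mutants and 490 ± 223 BPM in controls (log2 fold change 0.73). Scarna10, a composite guide with both kinds of box in human, averaged 726 ± 202 BPM in mutants and 467 ± 127 BPM in controls (log2 fold change 0.64). Scarna9 averaged 194 ± 106 BPM in mutants and 128 ± 47.1 BPM in controls (log2 fold change 0.54). Scarna8 and Scarna13 had log2 fold changes of 0.14 and -0.10. The adjusted p of these last 5 in limma lay between 0.806 and 0.966.

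Below the most abundant guides, Snora61 stood out. It had 320.5, 3194, 3119 and 2208 BPM in mutants, against 534, 464, 334 and 469 BPM in controls. Mutant 3382 was the lowest of all 8 libraries, while the other 3 mutants were each above 4 times the highest control. The log2 fold change was 1.87 (SE 0.52, limma adjusted p = 0.251). Without mutant 3382 it was 2.66 (limma adjusted p = 0.000834), and Scarna3a and Snora68 then also passed, at 2.40 (adjusted p = 0.0168) and 2.19 (adjusted p = 0.0349), beside 0.0863% of all genes called higher in that fit. The calls therefore depended on this library. With array weights, which give less weight to noisier libraries, 5 members passed as higher (Scarna17, Scarna3a, Snora61, Snora68 and Snora7a), beside 0.452% of genes. The weights were 0.538, 1.34, 0.532 and 0.696 in mutants, against 3.16, 0.793, 0.824 and 1.81 in controls. Control 3401 therefore counted most in that fit, and mutants 3382 and 3487 least. With the small RNA share of each library as a covariate, 3 passed as lower (Snora28, Snora78 and Snora23), beside 0.62% of genes. That share includes the members' own bases, so these calls are not independent of it. Mutant 3382 also had the highest macrophage marker sum, 1367 BPM, whose part in these differences was not tested.

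Snora34 had 64.6, 178, 270 and 91.6 BPM in mutants, against 66.6, 77.3, 30.3 and 60.0 BPM in controls (log2 fold change 1.22, limma adjusted p = 0.539). Snora36b averaged 80.9 ± 46.8 BPM in mutants and 33.5 ± 19.2 BPM in controls (log2 fold change 1.28, limma adjusted p = 0.638). Snora65 averaged 34.5 ± 22.2 BPM in mutants and 14.01 ± 3.17 BPM in controls (log2 fold change 1.00, limma adjusted p = 0.783). In all 3 the mutant spread exceeded that of controls. On the other side stood Snora78, with 191.5, 212, 122 and 160 BPM in mutants, against 351, 401, 191.4 and 336 BPM in controls. It had the most negative log2 fold change of the members, -0.87 (SE 0.32, limma adjusted p = 0.569), and only control 3586 reached into the mutant range. Snora5c (-0.66) and Snora62 (-0.52) followed Snora31 among negative values, with adjusted p of 0.836 and 0.861 in limma. The remaining tested Snora RNAs ran from -0.43 (Snora41) to 1.11 (Snora3), with limma adjusted p from 0.826 to 0.992. Snora65, Snora41, Snora3 and Snora23 are named outside the rule for named genes, after their values were seen.

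Many members shared their highest or their lowest library. Of 39 members, mutant 3487 was the highest library for 14 and mutant 3387 for 13, and both lay above every other library for 17. Control 3586 was the lowest library for 20 and mutant 3489 for 12. Control 3586 lay below the other 3 controls for 36 members, and it had the smallest small RNA share. No such counts over all genes are given, so these do not set the members apart from other genes. Within groups, the median SD of log2(BPM + 1) over members was 0.92 in mutants and 0.59 in controls, and it was larger in mutants for 31 members. Over all tested genes these medians were 0.65 in mutants and 0.49 in controls.

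Library totals cancel when 2 RNAs of one library are divided. Snora16a, Snora44 and Snora61 lie in that order on the plus strand of chromosome 4 within the noncoding host Snhg12. The ratio of Snora61 to Snora16a was 0.0898, 0.323, 0.314 and 0.477 in mutants, against 0.0770, 0.0662, 0.0821 and 0.0893 in controls. All mutants lay above all controls, mutant 3382 by a narrow margin. The mean log2 ratio differed by 1.72 (exact 2-sided permutation p = 0.0286, the smallest that 4 against 4 allows, and 0.114 after adjustment over the 4 pairs compared). The ratio of Snora61 to Snora44 differed by 2.17 on the log2 scale (exact permutation p = 0.0857, adjusted 0.171), and that of Snora44 to Snora16a by -0.45 (exact permutation p = 0.171, adjusted 0.171). In the other host with a tested pair, Kansl2, the ratio of Snora34 to Snora2b differed by 0.96 (exact permutation p = 0.143, adjusted 0.171). None passed after adjustment, and the pairs were added after values of these RNAs were seen.

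Expressed as a share of all member bases, Snora7a made up 12.1%, 17.9%, 18.2% and 24.1% in mutants, against 6.98%, 7.67%, 8.03% and 11.2% in controls, with no overlap. Snora44 made up 12.04%, 7.75%, 8.63% and 8.35% in mutants, against 14.01%, 13.1%, 18.6% and 18.1% in controls. Snora28 made up 4.91%, 3.17%, 2.66% and 1.68% in mutants, against 8.75%, 9.63%, 6.10% and 5.21% in controls. Snora31 made up 23.5%, 7.77%, 4.03% and 3.98% in mutants, against 18.7%, 18.4%, 10.9% and 21.5% in controls, and mutant 3382 was above all other libraries while the other mutants were below all controls. On this scale 2 of 39 members lay above all controls in every mutant (5.13%, Snora7a and Snora34), beside 0.176% of all genes divided by the same sum. A further 4 lay below (10.3%, Snora44, Snora28, Snora78 and Snora20), beside 2.06% of genes. The divisor is made of the members themselves, so the values for all genes are not a like background. In BPM those values were 0.888% above and 3.4% below. Shares of a common total are not independent of each other, and the scale of shares was added after the data were seen, so no test is given.

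**Figure D4:**
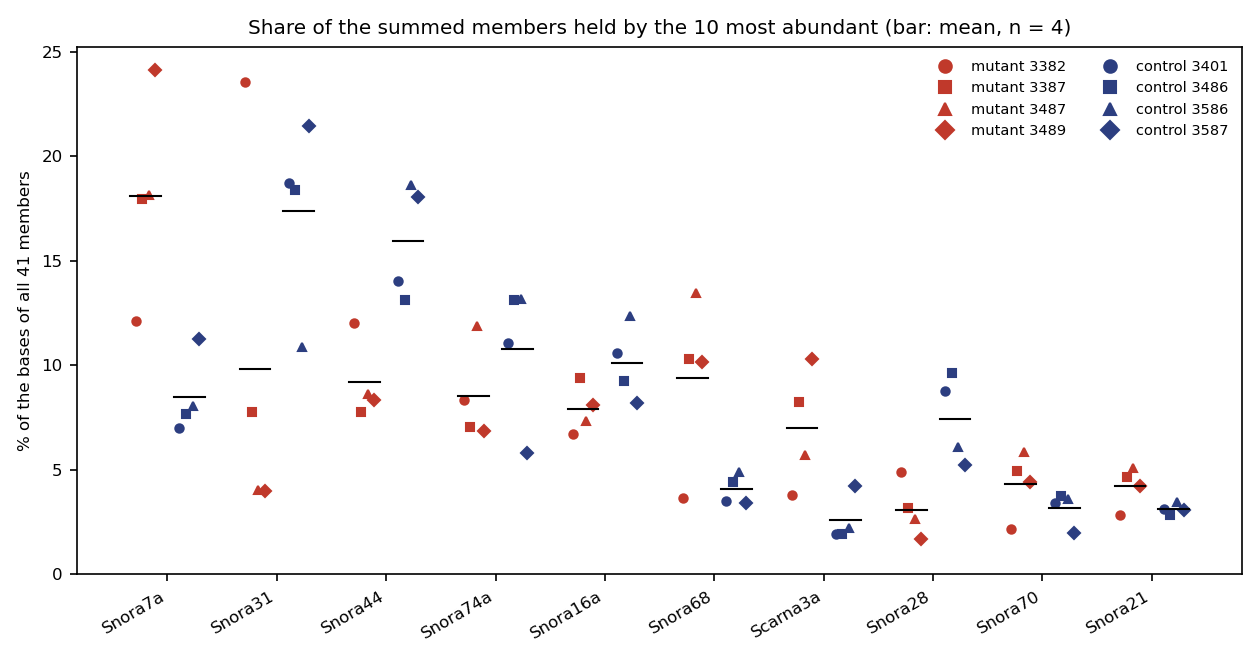
Share of the summed guide RNA bases held by each of the 10 most abundant RNAs in each library, in percent, with bars at group means and mutants left of controls. Snora7a held 12.1% to 24.1% in mutants and 6.98% to 11.2% in controls, and Snora44 7.75% to 12.04% in mutants and 13.1% to 18.6% in controls.

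For 37 members the annotation placed a longer gene over the RNA on the same strand, which gave 34 hosts, of which 27 were tested. For 18 members a listed host transcript had an exon overlapping the RNA, and there bases of host and guide cannot be told apart by position. Hosts had a median log2 fold change of -0.46, with a range of -1.37 to 0.50, and 0 of 27 were called in limma. At an unadjusted p under 0.05 there were 2 (7.41%), near the 6.33% of all genes in either direction. They were Rps2 (-1.37) and Rps12 (-1.08), named here after their values were seen. The 11 ribosomal protein hosts all had negative values, as most genes did (28.4% were positive). However, 1 host, Rpl10, turned positive with small RNA genes out of the totals and with median scaling (0.027 and 0.0081). Without mutant 3487, 1 of the 11 was positive, and without mutants 3387 and 3487, 3 were. Of the 11 members inside the ribosomal protein hosts 7 had positive values, with a range of -0.52 to 1.59. Under the other scalings and the covariate 5 to 10 did.

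Guide and host were set side by side for the pairs named. Rpl32, a large subunit protein gene and the host of Snora7a, averaged 505 ± 72.3 BPM in mutants and 721 ± 156 BPM in controls (log2 fold change -0.50, limma adjusted p = 0.836), where Snora7a itself had 1.59. Rpl23, host of Snora21, had -0.89, and Rpl10, host of Snora70, had -0.25. Tpt1 and Eif5, the hosts of Snora31 and Snora28, had -0.69 and -0.43, of the same sign as their guides. Atg16l1, Kansl2 and Rab3gap2, the hosts of Scarna6, Snora34 and Snora36b, had -0.35, -0.59 and -0.28. Snhg12 averaged 4.22 ± 0.96 BPM in mutants and 5.30 ± 0.64 BPM in controls, although its guides averaged 1330 BPM or more over all libraries. Snhg9, annotated over Snora78, had at most 0.436 BPM in any library and was not tested. Of 27 tested hosts only 2 had positive values, so a count of shared signs mostly reflects the signs of the guides. Over 29 members with a tested host, 14 shared the sign of their host, with a Pearson r of 0.21 and a Spearman rho of 0.22. These points share libraries and hosts, so the correlation is a description.

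**Figure D5:**
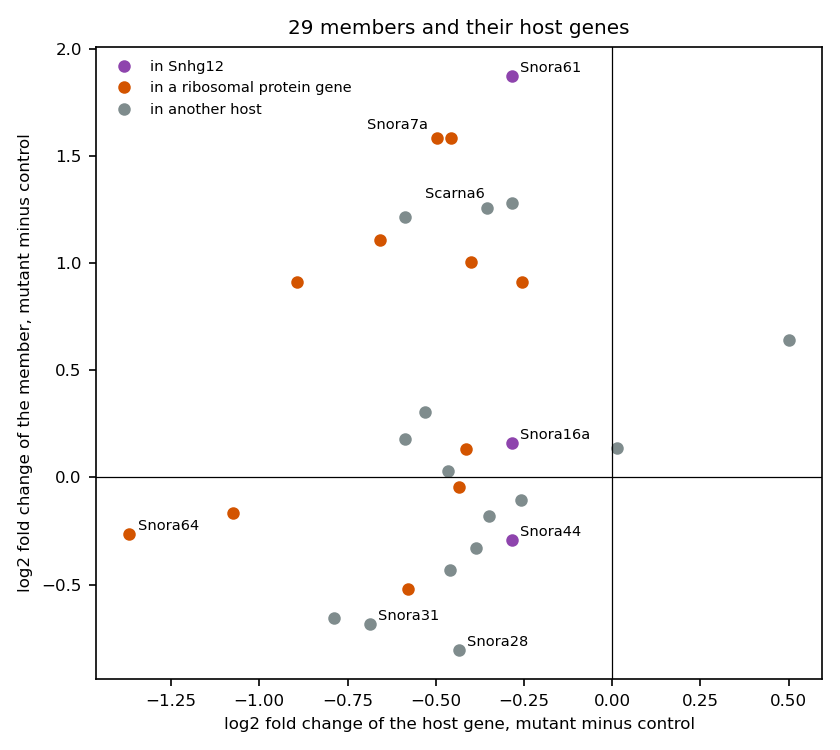
Log2 fold change of each guide RNA (vertical axis) against that of its host gene (horizontal axis), mutants over controls, for 29 members with a tested host, coloured by kind of host. Most hosts lie left of 0, while guides lie on both sides of it, and r was 0.21.

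The proteins of the particle had no called gene. Of the 4 core proteins, Nop10 had 73.8, 66.6, 98.9 and 71.3 BPM in mutants, against 115, 131, 131 and 123 BPM in controls. Every mutant lay below every control, as for 3.4% of all tested genes, and the log2 fold change was -0.70 (limma adjusted p = 0.716). Dkc1, the synthase, had 0.23, Nhp2 had -0.13 and Gar1 had -0.08. Terc, the telomerase RNA, which carries an H/ACA domain, averaged 2.82 ± 4.46 BPM in mutants and 1.12 ± 0.94 BPM in controls and was below the level filter.

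Among 9 tested genes of H/ACA assembly and telomerase, 0 were called and the median log2 fold change was -0.45, with Ruvbl1 at -1.14 and Pih1d1 at -0.71, both of the assembly machinery. In the Cajal body list, 0 of 11 tested genes were called and the median was -0.28, with Gemin4 at -0.72 and the cap methylase gene Tgs1 at -0.66. The stand-alone pseudouridine synthases, which need no guide RNA, had 0 of 11 called and a median of -0.19, with Pus7 at -0.66 and Pus10 at -0.54. The box C/D core proteins had 0 of 4 called and a median of -0.34, with Nop56 at -0.71 and Nop58 at -0.38. The median of all tested genes on the same scale was -0.23, and the background of called genes was 0.107% in either direction.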

How the data were processed

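RNA was measured in 8 whole kidney libraries. Per the labels' protocols, column-purified, DNase-treated total RNA was depleted of ribosomal RNA and made into libraries with an Ion Total RNA-seq kit. Column binding and library size selection can change the yield of short RNAs between samples. The submitters' processing notes name bedtools and mm10. Which aligner and gene models served, and how strand and multi-mapping reads were treated, is not given in the sources used here. In 1 table the authors deposited a coverage signal per gene and library, group means, a ratio of means and a p-value. The signal was read from its values: dividing each column by its minimum gave whole numbers throughout (100%, tolerance 1e-06), and 0.0435% of positive values lay under 20 steps. They were taken as bases plus 1, scaled to 280 megabases. Read numbers are unknown, so no counting interval is given.

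Values divided by 280 are called BPM. A gene entered the test when 4 libraries or more reached 1 BPM (13060 genes). Testing was 2-sided in limma 3.58.1 under R 4.3.3, with its trend option, on log2(BPM + 1). Adjustment was by Benjamini-Hochberg over all of these genes, and the threshold was 0.05. The pseudocount of 1 understates changes of low genes. The same-host ratios used the exact permutation test of scipy 1.17.1. The design had allowed for counts, and the values were not counts. The limma step was tested on simulated data.

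Annotation came from GENCODE vM21 and a RefSeq table, both on GRCm38 (mm10), with 22904 of 23219 symbols found. Small RNA genes were 710 genes of the small nucleolar, small nuclear, micro RNA and similar classes. A host was the longest spliced gene spanning the RNA on its strand. The members and lists were chosen with earlier results of these data known. The text names the 10 members highest per base, the 10 of smallest p, the 5 most positive and 5 most negative with a mean of at least 10 BPM, all Scarna RNAs, hosts of the first 2 sets (1 host is not reported here), the core proteins with Terc, and the 2 genes of smallest p in each other list. Alternatives were other filters, pseudocounts, scalings, a small RNA covariate, array weights and libraries left out.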

Additional observations from a re-analysis of the deposited data

Results flagged for a closer look

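Of 96 groups of 4 libraries checked, 8 held 1 library whose gap to its nearest neighbour took up more of the group's range than Dixon's critical value for 4 samples allows. Groups with no bases in 2 or more libraries were not checked. Chance alone flags about 1 in 20 groups. Among mutants, Scarna2 had 1574 BPM in 3387, with 546 to 643 BPM in the others, and Snora61 had 320.5 BPM in 3382, with 2208 to 3194 BPM in the others. Mutant 3382 also had 9.50 BPM of Terc, with 0.510 to 0.726 BPM in the others. Mutant 3487 had 3.31 BPM of Dkc1 (7.67 to 8.12 BPM in the others) and 1.12 BPM of Nop58 (6.56 to 7.42 BPM). Among controls all 3 flags fell on 3586, which had 3593 BPM of Snora31 (12260 to 13880 BPM in the others), 1146 BPM of Snora21 (1962 to 2140 BPM) and 57.3 BPM of Scarna9 (150 to 154 BPM).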

How the results depend on the processing

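No paired analysis was made, because the sample labels used here name no pairs and the groups share no replicate numbers. Over 18 alternatives, members called higher numbered 5 with array weights (Scarna17 1.35, Scarna3a 2.02, Snora61 2.04, Snora68 1.75 and Snora7a 1.62 in log2 fold change, adjusted p 0.0113 to 0.0444 in limma), beside 0.452% of genes, and 0 to 3 with 1 library left out. Members called lower numbered 3 with each library's small RNA share as covariate (Snora28 -1.57, Snora78 -1.04 and Snora23 -0.99), beside 0.62% of genes, and 0 to 0 with 1 library left out. In the other alternatives both counts were 0. The member median ran from 0.0015 to 0.47 with 1 library left out. It was 0.45 with small RNA genes out of the totals and 0.43 with median scaling, where the median of all genes was 0.03 and 0.01, against -0.23 as reported. It was -0.33 scaled to the small RNA total and -0.30 scaled to the summed members, where that of all genes was -0.70 and -0.67. It was -0.23 with the covariate and -0.25 without mutants 3387 and 3487, where that of all genes was 0.22 and 0.23, so the members lay below all genes there. The covariate includes the members' own bases, and those mutants had the largest member shares, so neither setting is independent of the members. The cause was not tested.

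Of 53 genes named and followed, these reversed in sign, none past the threshold in that setting. With small RNA genes out of the totals, Gar1 had 0.066, Nhp2 0.15, Rpl10 0.027, Scarna13 0.18 and Snora23 0.18, and with median scaling 0.041, 0.13, 0.0081, 0.16 and 0.16. Scaled to the small RNA total, Dkc1 had -0.22, Scarna8 -0.39, Snora16a -0.37, Snora2b -0.24 and Snora74a -0.33, and scaled to the summed members (added after the data were seen) -0.19, -0.37, -0.35, -0.23 and -0.30. With the covariate, Atg16l1 had 0.11, Gar1 0.24, Kansl2 0.055, Mta2 0.0070, Rab3gap2 0.21, Scarna8 -0.53, Snora16a -0.42, Snora2b -0.70, Snora3 -0.23 and Snora74a -0.50. Without mutants 3387 and 3487, Atg16l1 had 0.21, Gar1 0.34, Gemin4 0.10, Kansl2 0.41, Mta2 0.027, Nop58 0.043, Rab3gap2 0.085, Scarna13 0.0046, Scarna8 -0.26, Snora16a -0.48, Snora2b -0.52, Snora3 -0.31, Snora70 -0.044 and Snora74a -0.49. With 1 library left out, ranges that crossed 0 were -0.020 to 0.49 for Dkc1, -0.40 to 0.10 for Gar1, -0.33 to 0.0089 for Nhp2, -0.57 to 0.093 for Nop58, -0.29 to 0.032 for Scarna13, -0.29 to 0.62 for Scarna8, -0.054 to 0.44 for Snora16a, -0.68 to 0.059 for Snora20, -0.45 to 0.20 for Snora23, -0.14 to 0.55 for Snora2b and -0.21 to 0.47 for Snora74a.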
